A study of Mus musculus with 10 samples.

Results

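Chaperones are the proteins that help other proteins fold, and 30 of their genes, or genes closely tied to them, were followed here in livers with and without the glucagon receptor. The 30 genes were taken as a group and were looked up on the array by the gene name in the scanner files or an older synonym, so that Manf was found as Armet, Hsph1 as Hsp110 and Sel1l as Sel1h. Of the 17 members that act in or for the endoplasmic reticulum (ER), all 17 were measured, and of the 13 cytosolic and mitochondrial members 12 were measured, so that 29 of the 18934 genes tested were members. Hspa1b has no probe under its own name. It is a near-identical copy of Hspa1a, and 2 of the 4 Hspa1a probes carry the accessions of both genes, so every value given for Hspa1a may include RNA of Hspa1b.

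RNA came from livers of 10 mice, 5 wild type (WT, genotype wt/wt per the labels) and 5 KO, which lack Gcgr, the gene of the glucagon receptor, on both alleles (GCGR ko/ko). Among WT mice there were 3 males and 2 females and among KO mice 2 males and 3 females, and strain, age, feeding state and the design of the knockout allele are not given in the sources used here. Each value below is a log2 ratio of liver RNA over a universal mouse reference RNA on the same array, so a value can be compared between livers for 1 gene but not between genes. Gcgr was at 7.74 to 8.14 in the 5 WT livers and at 0.28 to 0.36 in the 5 KO livers, and Xist, the RNA of the inactive X chromosome, was at 1.38 to 1.78 in the females and at -5.49 to -4.47 in the males, so both labels fitted every liver. Arrays lay on 4 slides: slide 1 held WT 1 and 2 (male), KO 1 (male) and KO 2 (female), slide 2 held KO 3 and 4 (female), slide 3 held WT 3 and 4 (female) and KO 5 (male), and slide 4 held WT 5 (male). No slide held both a WT and a KO female. Slides 2 and 4 each held a single genotype and sex. In fits with slide as a fixed block, the genotype and sex differences therefore come from slides 1 and 3 alone. The hepatocyte markers were high in all livers (mean log2 ratio of 9 genes between 7.07 and 7.68). In bulk tissue, fewer cells of a type and less RNA per cell cannot be told apart.

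Proteins that the liver secretes fold inside the ER, where Hspa5 (BiP), its helpers and the disulphide isomerases hold and shape them. When unfolded protein builds up there, the sensors Ern1 (IRE1), Eif2ak3 (PERK) and Atf6 start the unfolded protein response, and the factors XBP1 and ATF6 raise transcription of ER chaperone genes. In the cytosol the factor HSF1 does the same for Hspa1a, Dnajb1, Hsph1 and other heat shock genes when proteins are damaged or the cell is warmed.

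Promoter sequences are shown so that the known binding motifs of the 2 classes can be read beside their values. The 250 bases before the start of transcription were read from RefSeq promoters of assembly GRCm38.p6, which held entries for 25 of the 30 members (15 ER, 10 cytosolic or mitochondrial; none for Hyou1, Manf, Hspa8, Hsp90aa1 or Hsp90ab1). The ER stress response element, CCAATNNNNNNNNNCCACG searched on both strands, was found in 7 of 15 ER members, in 0 of 10 others and in 37 of all 32851 promoters (0.113%). Each stretch below reads 5′ to 3′ along the gene's own strand, with the fixed letters of the element in capitals; CGTGG followed by ATTGG is the element on the opposite strand.
Hspa5, chr2:34772017-34772051: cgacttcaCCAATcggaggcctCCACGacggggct
Hsp90b1, chr10:86705630-86705664: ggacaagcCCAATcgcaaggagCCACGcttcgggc
Hsp90b1, chr10:86705525-86705559: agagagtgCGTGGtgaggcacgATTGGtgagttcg
Pdia6, chr12:17266483-17266517: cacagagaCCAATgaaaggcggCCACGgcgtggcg
Calr, chr8:84847067-84847101: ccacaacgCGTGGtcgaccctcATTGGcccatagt
Canx, chr11:50325792-50325826: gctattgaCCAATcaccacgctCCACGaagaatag
Dnajc3, chr14:118937819-118937853: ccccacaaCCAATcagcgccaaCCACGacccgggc
Creld2, chr15:88819512-88819546: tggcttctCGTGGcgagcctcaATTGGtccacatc

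Hsp90b1 held 2 elements, and the other 6 genes 1 each, between 65 (Hspa5) and 162 (Calr) bases before the start. The whole 250 bases are given for Hspa5, the central ER chaperone, and for Creld2, whose sex difference is described below.
Hspa5, chr2:34771840-34772089: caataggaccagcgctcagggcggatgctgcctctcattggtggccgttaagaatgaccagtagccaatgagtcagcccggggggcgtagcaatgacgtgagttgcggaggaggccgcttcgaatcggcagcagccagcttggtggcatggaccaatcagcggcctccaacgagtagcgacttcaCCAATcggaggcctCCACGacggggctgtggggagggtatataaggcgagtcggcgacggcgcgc
Creld2, chr15:88819396-88819645: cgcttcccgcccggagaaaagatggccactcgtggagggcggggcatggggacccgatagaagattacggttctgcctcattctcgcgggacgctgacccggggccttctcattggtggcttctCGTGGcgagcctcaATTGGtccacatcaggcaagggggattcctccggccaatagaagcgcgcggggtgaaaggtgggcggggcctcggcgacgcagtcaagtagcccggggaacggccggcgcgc

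Heat shock elements are inverted repeats of GAA. The 3-unit form GAANNTTCNNGAA, on both strands, was found in the promoter of 1 of the 10 cytosolic and mitochondrial members, Hspe1, and in 153 of all promoters (0.466%). The 2-unit form GAANNTTC, which lies inside the 3-unit form, was found in 5 of these 10 (Hspa1a, Hspa1b, Hspe1, Dnaja1 and Hspb1), in 0 of 15 ER members and in 6.69% of all promoters. The other 2-unit form, TTCNNGAA, was found in Hsph1 and Hspe1 and in 7.17% of all promoters. The Hspe1 promoter holds 2 overlapping 3-unit matches, of which the one nearer the start is shown with its units in capitals, and the Hspa1a promoter, whose gene varied most among the members, is shown with its GAANNTTC in capitals.
Hspe1, chr1:55088056-55088084: ccgttctaGAAccTTCcgGAAggccccgc
Hspa1a, chr17:34972157-34972406: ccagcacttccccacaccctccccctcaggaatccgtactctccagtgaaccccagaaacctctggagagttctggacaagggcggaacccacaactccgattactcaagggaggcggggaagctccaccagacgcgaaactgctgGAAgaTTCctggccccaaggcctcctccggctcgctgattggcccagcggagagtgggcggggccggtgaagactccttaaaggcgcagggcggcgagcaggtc

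The first comparison asked what loss of the glucagon receptor does to these genes. In the model with genotype and sex, 0 of 17 ER members and 0 of 12 cytosolic and mitochondrial members passed for genotype (limma, Benjamini-Hochberg adjusted p under 0.05 over all genes), against 1127 of 18934 genes, or 5.95% (545 higher and 582 lower in KO livers; 48.4% higher, but 71.5% higher of 274 with median centring). At an unadjusted p under 0.05 there were 3 ER members and 1 other (13.8% of the 29, against 20.9% of all genes), and the smallest adjusted p was 0.172. No member had KO and WT livers that did not overlap, which 6.06% of all genes had. The median KO minus WT difference was -0.07 over the ER members, 0.07 over the others and 0.00 over all genes on the log2 scale. For 16 of the 17 ER members and 10 of the 12 others the 95% interval of the difference lay wholly within 1 log2 unit, which is a change of less than 2-fold either way, and so it did for 97.6% of all genes.

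**Figure D1:**
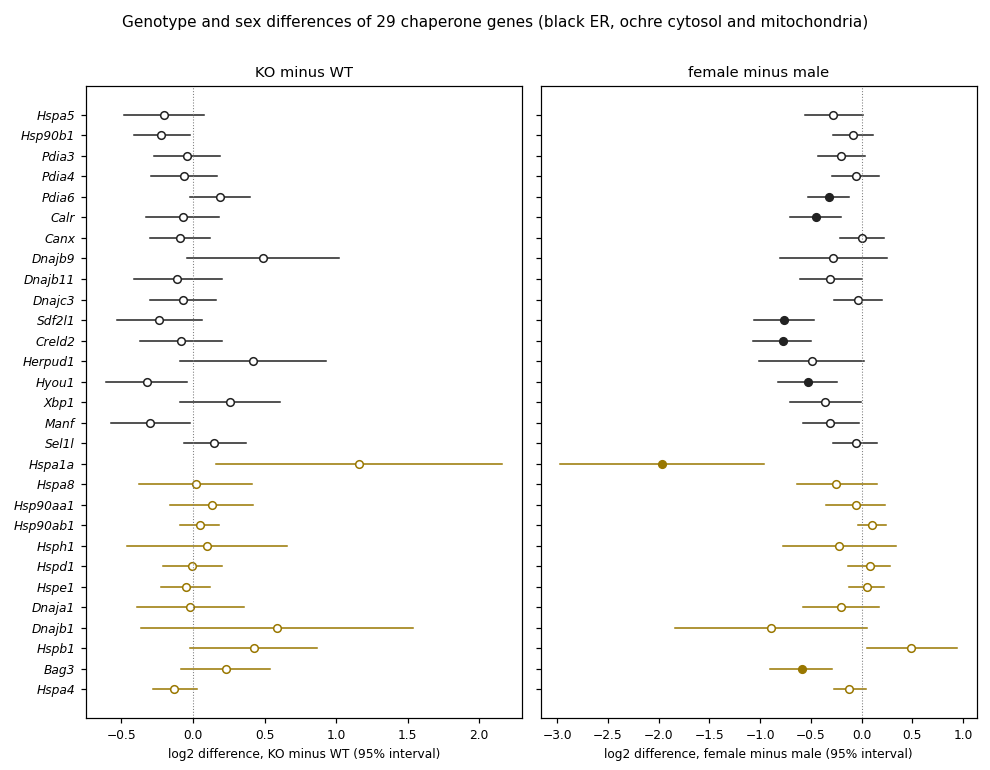
Difference of 29 chaperone genes on the log2 scale between KO and WT livers (left) and between female and male livers (right), with 95% intervals from limma; black marks ER members, ochre marks cytosolic and mitochondrial members, and filled circles passed an adjusted p of 0.05. No circle is filled on the left, and 7 are filled on the right, all below 0.

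Among the ER folding machines, Hspa5 (the HSP70 of the ER; probe on chromosome 2 at 34783421 to 34783480 in the array files' build mm7) had log2 ratios of 0.47, 0.57, 0.36, 0.34 and 0.57 in WT 1 to WT 5 and 0.24, 0.38, -0.35, 0.15 and 0.61 in KO 1 to KO 5. KO 3 was the lowest liver and KO 5 the highest, and the 2 groups overlapped. The difference was -0.20 (95% interval -0.48 to 0.08, limma adjusted p = 0.422), or 0.87-fold with an interval of 0.716 to 1.06. Hsp90b1, the HSP90 of the ER, had 0.07, 0.2, -0.07, -0.12 and 0.02 in WT 1 to WT 5 and -0.26, -0.04, -0.45, -0.13 and -0.19 in KO 1 to KO 5. Its KO minus WT difference was -0.22 (-0.41 to -0.02), with an adjusted p of 0.196. Its second probe was at -0.39 (limma adjusted p = 0.0704) and the mean over its probes at -0.30 (0.0765). The nucleotide exchange factor Hyou1, at -0.32 (-0.61 to -0.04), and the secreted ER protein Manf, at -0.30 (-0.57 to -0.02), completed the 3 members whose unadjusted intervals lay below 0, and their adjusted p values were 0.180 and 0.204. Leaving out any single liver, or changing the processing, gave no adjusted p under 0.05 for these 4 genes in 24 alternatives each, with the lowest at 0.0665 for Hyou1.

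The lectins and disulphide isomerases, which hold and shape proteins in the ER, had residual SDs above those of 58.2% (Pdia6) to 79% (Calr) of all genes. Calr differed by -0.07 (-0.33 to 0.18), Canx by -0.09 (-0.30 to 0.12), Pdia3 by -0.04 (-0.27 to 0.19), Pdia4 by -0.06 (-0.29 to 0.17) and Pdia6 by 0.19 (-0.02 to 0.40) on the log2 scale, with adjusted p values of 0.283 to 0.864. The 4 probes of Pdia6 did not agree in sign, with differences from -0.49 to 0.19, and none of them passed. The J-domain helpers of Hspa5 were Dnajb11 at -0.11 (-0.41 to 0.20) and Dnajc3 at -0.07 (-0.30 to 0.16), and its further partners Sdf2l1 and Creld2 were at -0.24 (-0.53 to 0.06) and -0.08 (-0.37 to 0.20). Xbp1, the transcription factor of the IRE1 branch, was at 0.26 (-0.09 to 0.61), and Sel1l, a scaffold of ER-associated degradation, at 0.15 (-0.06 to 0.37).

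**Figure D2:**
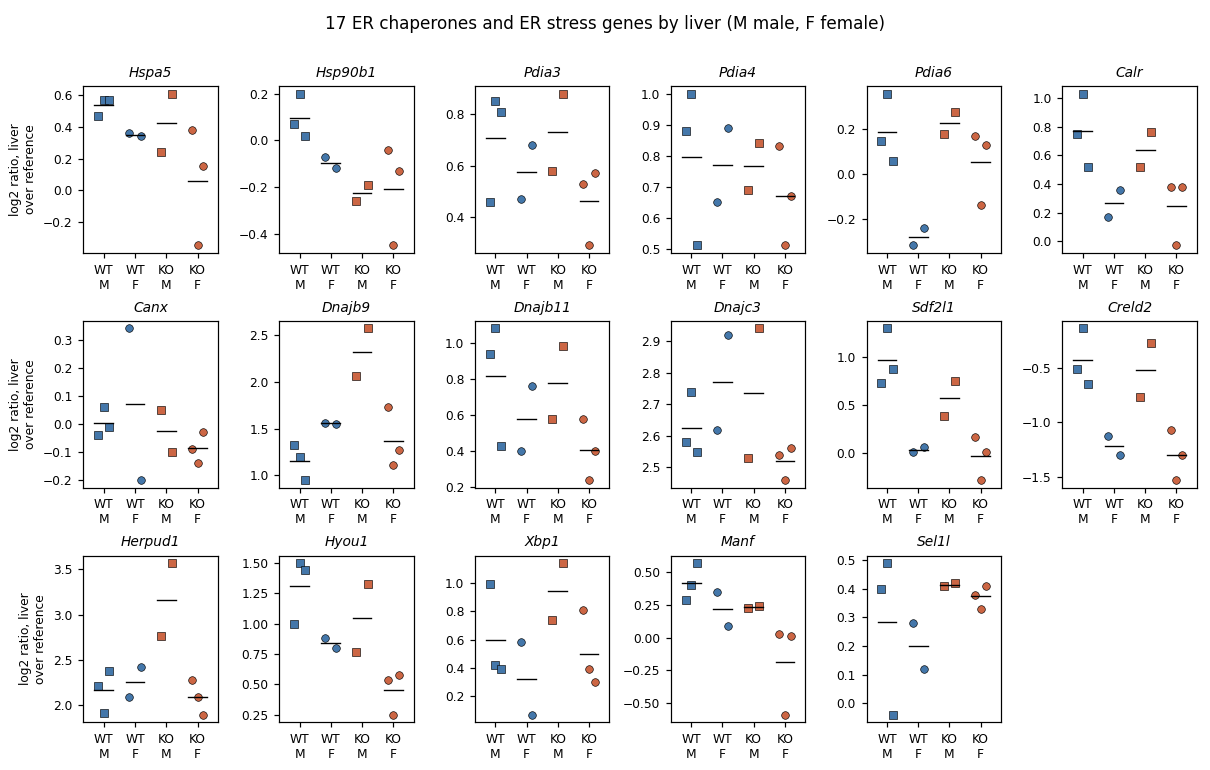
Log2 ratio of each of 17 ER members in every liver, by genotype and sex (squares male, circles female, blue WT, orange KO; the line is the mean of the subgroup; each panel has its own scale). Sdf2l1, Creld2 and Calr have every female liver below every male liver, and Herpud1 and Dnajb9 have both male KO livers on top.

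Herpud1 and Dnajb9 showed the widest scatter among the ER members, with residual SDs of 0.45 and 0.46 that exceeded those of 98.3% and 98.4% of all genes. Herpud1, an ER membrane protein of the degradation pathway, had log2 ratios of 2.21, 1.91, 2.09, 2.42 and 2.37 in WT 1 to WT 5 and 2.76, 2.28, 2.09, 1.89 and 3.57 in KO 1 to KO 5. Dnajb9 (ERdj4), another J-domain partner of Hspa5, had 1.32, 1.2, 1.56, 1.55 and 0.95 in WT 1 to WT 5 and 2.06, 1.73, 1.11, 1.27 and 2.57 in KO 1 to KO 5. In both genes the 2 male KO livers, KO 1 and KO 5, were the 2 highest of the 10, while the 3 female KO livers lay between 1.89 and 2.28 for Herpud1 and between 1.11 and 1.73 for Dnajb9. The genotype differences were 0.42 (-0.09 to 0.93, limma adjusted p = 0.348) for Herpud1 and 0.49 (-0.04 to 1.02, 0.275) for Dnajb9. With slide as a fixed block both passed, at 0.75 (0.00826) and 0.76 (0.00116), but KO 3, KO 4 and WT 5 add nothing to the difference in that fit. Of all 18934 genes 1198 passed for genotype there. Without both male KO livers the differences were -0.17 and -0.18 (adjusted p of 0.621 and 0.625), so that their sign turned.

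Among the cytosolic members, Hspa1a (inducible HSP70; chromosome 17 at 33066911 to 33066970, mm7) had log2 ratios of -0.2, -0.58, -1.4, -0.88 and -0.63 in WT 1 to WT 5 and 1.19, -1.4, -1.13, -1.31 and 2.79 in KO 1 to KO 5. KO 5 stood above KO 1 and KO 1 above the highest WT liver, whereas the 3 female KO livers lay between -1.40 and -1.13, at the low end of the WT range. The KO minus WT difference was 1.16 (0.16 to 2.16, limma adjusted p = 0.172), or 2.23-fold with an interval from 1.11 to 4.48. All 3 Hspa1a probes that passed the filter on dim signal gave the same sign, from 0.70 to 1.16, and none passed. The gene's residual SD of 0.90 exceeded that of 99.9% of all genes.

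Dnajb1 (HSP40), the J-domain partner of cytosolic HSP70, had log2 ratios of -0.43, -0.74, -0.47, -0.42 and -0.57 in WT 1 to WT 5 and -0.06, -0.82, -0.95, -0.9 and 2.13 in KO 1 to KO 5. KO 5 alone was far above the rest, and the 3 female KO livers were the 3 lowest. The difference was 0.59 (-0.36 to 1.54, adjusted p = 0.499). Bag3, a co-chaperone that hands HSP70 clients to autophagy, had -0.05, -0.25, -0.66, -0.56 and -0.63 in WT 1 to WT 5 and 0.05, -0.59, -0.67, -0.76 and 0.38 in KO 1 to KO 5. Here too KO 5 and KO 1 were highest, with WT 1 just below KO 1, and the difference was 0.23 (-0.08 to 0.54, 0.391). The constitutive Hspa8, at 0.02 (-0.38 to 0.41), Dnaja1, at -0.02 (-0.39 to 0.36), and the exchange factor Hsph1, at 0.10 (-0.46 to 0.66), were centred near 0, although KO 5 was the highest liver for each of them.

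**Figure D3:**
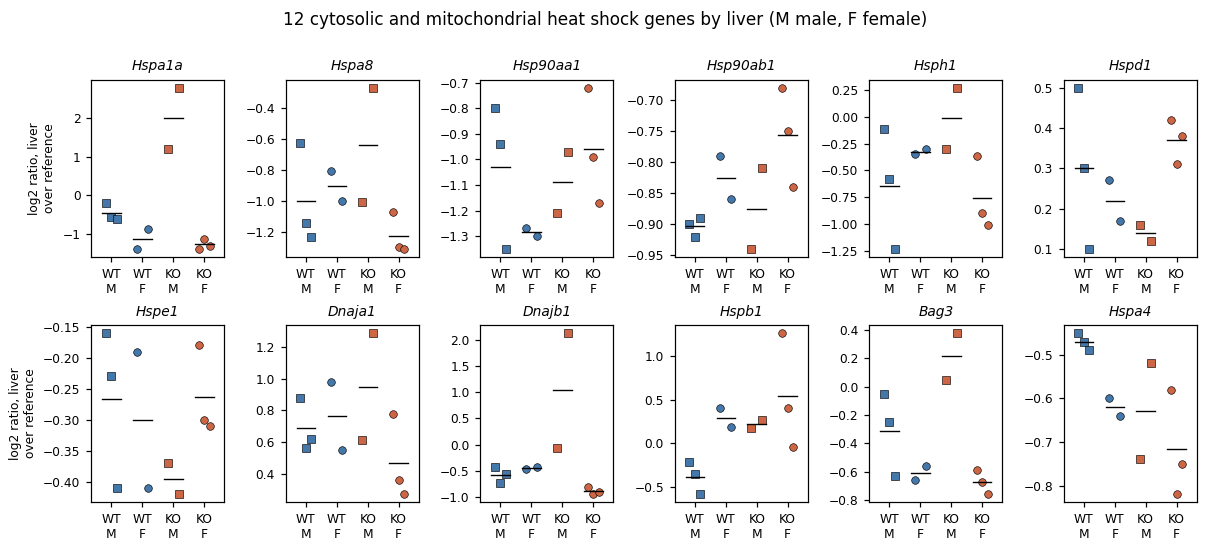
Log2 ratio of each of 12 cytosolic and mitochondrial members in every liver, by genotype and sex (squares male, circles female, blue WT, orange KO; the line is the mean of the subgroup; each panel has its own scale). Male KO liver 5 is the highest liver in Hspa1a, Dnajb1, Bag3, Hspa8, Hsph1 and Dnaja1, while all livers of Hsp90ab1 lie between -0.94 and -0.68.

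The small heat shock protein Hspb1 had log2 ratios of -0.21, -0.35, 0.4, 0.19 and -0.58 in WT 1 to WT 5 and 0.18, 1.26, 0.4, -0.04 and 0.27 in KO 1 to KO 5. Its highest liver was KO 2, a female, and the difference was 0.43 (-0.02 to 0.87, adjusted p = 0.261). The HSP90 genes of the cytosol were at 0.13 (-0.16 to 0.42) for Hsp90aa1 and 0.05 (-0.09 to 0.18) for Hsp90ab1, with residual SDs of 0.23 and 0.06. That of Hsp90aa1 exceeded 85.7% of all genes, and its livers lay between -1.35 and -0.72. Hspa4, a large HSP70-like exchange factor, was at -0.13 (-0.28 to 0.03). Its other probes past the filter on dim signal were at -0.16 and -0.38 (limma adjusted p = 0.249 and 0.0558), and the mean over its probes at -0.22 (0.09). The mitochondrial chaperonin pair Hspd1 (HSP60) and Hspe1 (HSP10), which share a promoter region and fold imported proteins, had the differences -0.01 (-0.21 to 0.20) and -0.05 (-0.22 to 0.12), or 0.996-fold (0.866 to 1.15) and 0.969-fold (0.861 to 1.09). The residual SD of Hsp90ab1 (0.06) was reached or undercut by 2.46% of genes.

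Calls for the cytosolic genes depended on slide. With slide as a fixed block 3 of them passed for genotype, Hspa1a at 1.49 (limma adjusted p = 0.00107), Dnajb1 at 0.98 (0.0106) and Hspb1 at 0.67 (0.0212), and with slide as a random block Hspa1a alone passed, at 1.37 (0.0331). Of all 18934 genes 1198 passed for genotype with the fixed block and 1578 with the random block. Within slide 1 the KO minus WT differences were 0.29 for Hspa1a, 0.14 for Dnajb1 and 1 for Hspb1, and within slide 3, which sets male KO 5 against 2 WT females, they were 3.93, 2.58 and -0.02. Without both male KO livers they were -0.14 (adjusted p = 0.721), -0.44 (0.0525) and 0.24 (0.714). All WT livers were male on slide 1 and female on slide 3. With slide as a fixed block, KO 3, KO 4 and WT 5 add nothing to the genotype difference.

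The 2 male KO livers were the 2 highest of the 10 in 5 members, Hspa1a, Dnajb1, Bag3, Herpud1 and Dnajb9, which is 17.2% of the 29 against 3.27% of all genes. They were the 2 lowest in 0 of the 29 members and in 864 of 18870 genes, against 617 genes in which they were the 2 highest. Among the 17 ER members, WT 2, a male, was the highest liver in 9 (11% of all genes) and KO 5 in 6 (10.5% of all genes). Among the 12 others KO 5 was highest in 6 and WT 2 in 0. KO 3, a female, was the lowest in 10 of 17 ER members, against 5.91% of all genes. The median deviation from each gene's own mean over the 10 livers was 0.28 in KO 5, 0.24 in WT 2 and -0.35 in KO 3 over the ER members. Over the cytosolic and mitochondrial members it was 0.36 in KO 5, -0.09 in WT 2 and -0.26 in both KO 3 and KO 4. These counts describe single livers and carry no test.

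**Figure D4:**
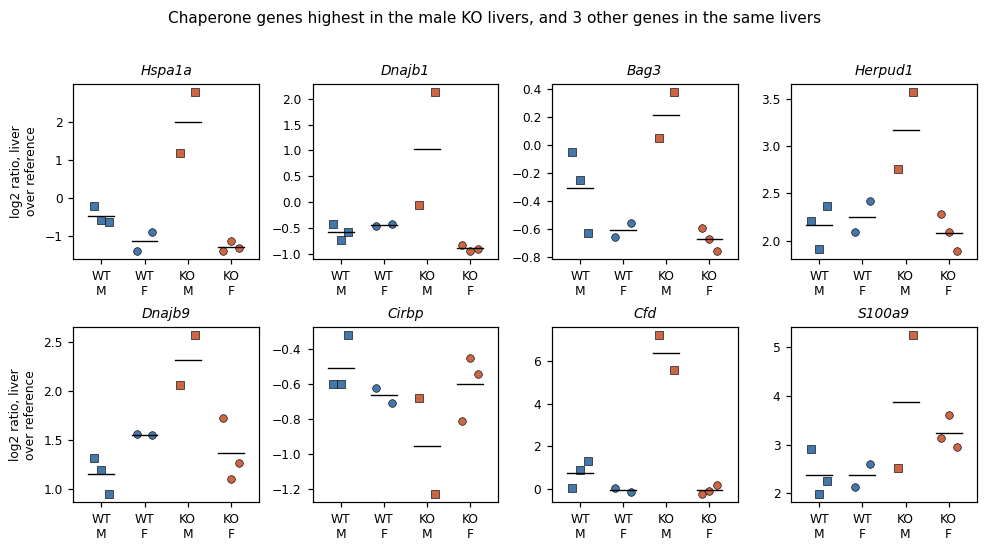
Log2 ratio in every liver of 5 chaperone genes and, below, of Cirbp, Cfd and S100a9 (squares male, circles female, blue WT, orange KO; the line is the mean of the subgroup). The 2 male KO livers are highest in the 5 chaperone genes and in Cfd, which was at 7.22 and 5.56 there and at most at 1.31 in the other 8 livers.

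A model with an interaction asked whether the KO effect differed between males (2 KO, 3 WT) and females (3 KO, 2 WT). Of the members 0 passed in limma against 6 of all genes (0.0317%). At an unadjusted p under 0.05 there were 6 members (20.7%), against 12.5% of all genes. In males Hspa1a was 2.46 higher in KO (SE 0.36) and in females -0.14 (SE 0.36), a difference of -2.60 (SE 0.51, limma adjusted p = 0.125). For Dnajb9 the KO effects were 1.16 in males and -0.18 in females (difference of -1.34, SE 0.28, 0.139), for Herpud1 1 and -0.17 (-1.18, SE 0.32, 0.223), and for Dnajb1 1.62 and -0.44 (-2.06, SE 0.64, 0.265). Without KO 1 the differences were -3.40 for Hspa1a, -3.16 for Dnajb1, -1.60 for Dnajb9 and -1.58 for Herpud1. The male KO group then held KO 5 alone, and its spread could only be assumed to be like that of the other livers, so no call is given. With slide as a fixed block none of the 4 passed, and the differences were -0.23 for Hspa1a (0.996) and -0.11 for Dnajb9 (0.996), while those of Dnajb1 (1.30, 0.480) and Herpud1 (0.12, 0.998) turned in sign. In that fit the male KO effect rests on KO 1 against WT 1 and WT 2. The female effect is pieced together across slides 1 and 3, as no slide held both a WT and a KO female. That fit can therefore say little about these differences.

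Other genes moved with these livers. Cfd (adipsin), on the adipocyte marker list, had log2 ratios of 0.06, 0.91, 0.06, -0.14 and 1.31 in WT 1 to WT 5 and 7.22, -0.25, -0.07, 0.2 and 5.56 in KO 1 to KO 5. Fabp4, on the same list, was highest in KO 1 and KO 5 as well, at 4.52 and 4.34 against 3.16 to 3.75 in the others. Cfd was 1 of the 6 genes past the interaction test (-5.64, SE 0.61, limma adjusted p = 0.0114). The defining adipocyte gene Plin1 was not raised there (0.06 in KO 1 and -0.20 in KO 5, with -0.03 to 0.28 in the others). The mean over the 4 adipocyte genes measured of 6 listed was 2.99 in KO 1, 2.51 in KO 5, and 0.74 to 1.25 in the others. Without Cfd it was 1.58 in KO 1 and 1.49 in KO 5, against 1.06 to 1.26 in the others, and the fourth gene, Retn, was at 0.18 and 0.33 there and at -0.32 to 0.21 in the others. S100a8 and S100a9, on the neutrophil list, were highest in KO 5, at 0.47 and 5.25, against -2.15 to -1.26 and 1.98 to 3.6 in the other livers. The third neutrophil gene measured, Ltf, was not highest there. Cirbp, an RNA-binding protein gene induced by cold, was lowest in KO 5 at -1.23, against -0.81 to -0.32 in the others. The part of these genes and of any other cells in the chaperone values was not tested.

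The second comparison was between the sexes, from the same model. Of the 29 members 7 passed, all 7 of them lower in females: 5 of 17 ER members and 2 of 12 others. Of all genes 11.5% passed for sex and 6.54% passed as lower in females (43.3% of those passing were higher in females, and 56.4% of 783 when outlier spots were set aside only after the background fit). The median female minus male difference was -0.31 over the ER members, with 16 of 17 estimates below 0, and -0.16 over the others, against 0.00 over all genes.

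Over all marker lists, with the hepatocyte list included, 7 of the 66 genes measured passed for sex (10.6%, against 11.5% of all genes). Lower in females were Alas2, 1 of 3 erythroid genes (-2.19, limma adjusted p = 3.49e-08), Ltf, 1 of 3 neutrophil genes (-1.20, 0.000173), and 2 of 4 adipocyte genes, Cfd (-3.62, 0.0225) and Fabp4 (-0.59, 0.0363). Higher in females were 2 of 7 sinusoidal endothelial genes, Kdr (0.43, 0.0159) and Fcgr2b (0.45, 0.0172), and 1 of 7 stellate cell genes, Rgs5 (0.46, 0.00723). The mean over the erythroid genes was 3.55 to 3.73 in males and 2.79 to 2.97 in females, without overlap. Of these genes only Alas2 passed, while Hba-a1 (-0.09, limma adjusted p = 0.782) and Slc4a1 (-0.12, 0.444) did not. The means of the neutrophil (0.57 to 2.43 and 0.34 to 0.88), adipocyte (0.92 to 2.99 and 0.74 to 0.99), endothelial (2.78 to 3.57 and 3.30 to 3.67) and stellate genes (-0.33 to 0.26 and 0.07 to 0.35) overlapped. The part of these marker genes and of any other cells in the sex differences of the chaperones was not tested.

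Creld2, a disulphide isomerase-like ER protein (chromosome 15 at 88908902 to 88908961, mm7), had log2 ratios of -0.51, -0.14, -1.13, -1.3 and -0.65 in WT 1 to WT 5 and -0.77, -1.07, -1.53, -1.3 and -0.27 in KO 1 to KO 5. The 5 males lay between -0.77 and -0.14 and the 5 females between -1.53 and -1.07, without overlap. The female minus male difference was -0.78 (SE 0.13, 95% interval -1.07 to -0.50, limma adjusted p = 0.00248), a level 1.72-fold higher in males. It was -0.79 within WT (adjusted p = 0.0330) and -0.78 within KO (0.0368).

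Sdf2l1, which works with Hspa5 and its J-domain partners (chromosome 16 at 16680066 to 16680125, mm7), had 0.73, 1.3, 0.01, 0.06 and 0.88 in WT 1 to WT 5 and 0.39, 0.17, -0.28, 0.01 and 0.75 in KO 1 to KO 5. Again all males (0.39 to 1.30) lay above all females (-0.28 to 0.17), and the difference was -0.77 (SE 0.13, adjusted p = 0.00320), 1.70-fold. Within WT it was -0.93 (0.0127) and within KO -0.60 (0.0858). Calr, the soluble lectin chaperone, was also without overlap, with 0.75, 1.03, 0.17, 0.36 and 0.52 in WT 1 to WT 5 and 0.52, 0.38, -0.03, 0.38 and 0.76 in KO 1 to KO 5. Its difference was -0.45 (SE 0.12, 0.0279), but its second probe was at -0.25 (0.156). Sexes that do not overlap occurred in 9.25% of all genes, and among the members in Creld2, Sdf2l1, Calr and Hspa1a.

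Hyou1 had 1, 1.5, 0.88, 0.8 and 1.44 in WT 1 to WT 5 and 0.77, 0.54, 0.25, 0.58 and 1.33 in KO 1 to KO 5. It was lower in females by 0.53 on the log2 scale (difference -0.53, SE 0.13, limma adjusted p = 0.0226). Pdia6 passed narrowly, at -0.32 (SE 0.09, 0.0485), and kept its call in 5 of 23 alternatives. Creld2 kept its call in 21 of 23, Sdf2l1 in 22, Hyou1 in 17 and Calr in 10. Leaving out 1 liver ended the call of Pdia6 for each liver but KO 2 (0.0512 to 0.141), of Calr for KO 3, KO 5 or any WT liver but WT 5 (0.0501 to 0.0898), and of Hyou1 for WT 4 or KO 5 (0.0584 and 0.0607). Without both male KO livers Creld2 (-0.79, 0.0255) and Sdf2l1 (-0.93, 0.0137) still passed, and Calr (-0.50, 0.104), Hyou1 (-0.47, 0.107) and Pdia6 (-0.47, 0.0533) did not. Within slide 1, whose only female is KO 2, the female minus male values were -0.60 for Creld2, -0.64 for Sdf2l1, -0.55 for Hyou1, -0.39 for Calr and -0.06 for Pdia6. Within slide 3, whose only male is KO 5, they were -0.95, -0.71, -0.49, -0.50 and -0.56. With slide as a fixed block Creld2 (-0.77, 0.0202) and Sdf2l1 (-0.70, 0.0491) passed, and Calr (-0.45, 0.0943), Hyou1 (-0.54, 0.0693) and Pdia6 (-0.28, 0.190) did not.

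Read beside the ER stress response element, of 7 ER members with the element 3 passed for sex (Pdia6, Calr and Creld2), with a median female minus male difference of -0.28, and of 8 without it 1 passed (Sdf2l1), with a median of -0.30. The median KO minus WT differences of these 2 sets were -0.08 and 0.05.

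In the cytosol, Hspa1a was lower in females by 1.97 on the log2 scale (difference -1.97, SE 0.46, limma adjusted p = 0.0172), 3.91-fold higher in males, and Bag3 was at -0.59 (SE 0.14, 0.0185), 1.51-fold higher in males. Split by genotype, Hspa1a was at -0.67 within WT (SE 0.36, 0.291) and -3.27 within KO (SE 0.36, 0.000433), and Bag3 at -0.30 (0.284) and -0.89 (0.00832). The difference between those 2 effects did not pass for either gene (adjusted p = 0.125 and 0.346). Without both male KO livers Hspa1a was at -0.67 (0.0503) and Bag3 at -0.30 (0.269), and without KO 1 alone Bag3 missed the threshold (0.0535). Hspb1 was the member with the largest estimate in the other direction, at 0.49 (SE 0.20, 0.157). It passed with slide as a fixed block (0.82, 0.00618), with slide as a random block (0.60, 0.0492) and without KO 4 (0.0285). Its female minus male value was 1.38 within slide 1, whose only female is KO 2, and 0.02 within slide 3. With the fixed block Dnajb1 (-1.32, 0.00133) and Herpud1 (-0.54, 0.0230) passed as lower in females too.

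In the wider folding pathways, which hold no members, 5 of 127 genes measured passed for genotype (3.94%, against 5.95% of all genes). Among 13 sensors and factors of the unfolded protein response measured, 1 rose and 0 fell: Mbtps1, the Golgi protease that activates ATF6, at 0.35 (SE 0.07, limma adjusted p = 0.0186), although its mean over several probes was 0.18 (0.0976) and it missed the threshold without WT 3 (0.0683) and with slide as a fixed block (0.28, 0.0677). Ern1 was at 0.04, Eif2ak3 at 0.43 (0.195), Atf6 at 0.04, Atf4 at 0.08 and Ddit3 (CHOP) at 0.10, none passing. Among 19 genes of oxidative folding and glycan processing, 1 rose and 0 fell. This was Ero1b, an oxidase that recharges the disulphide isomerases, with log2 ratios of 2.76, 2.8, 2.34, 2.24 and 2.43 in WT 1 to WT 5 and 3.74, 3.39, 3.05, 3.25 and 4 in KO 1 to KO 5. All 5 KO livers lay above all WT livers, and the difference was 1.07 (SE 0.11, 0.000243). It held without both male KO livers, at 0.94 (0.00707). No gene passed for genotype among 18 of ER-associated degradation, 18 of ER translocation, 14 of TRiC and prefoldin, 14 mitochondrial chaperones and proteases, or the 2 cold-inducible genes (limma; 14 of these 66, or 21.2%, at an unadjusted p under 0.05, against 20.9% of all genes).

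Among 29 HSF1 and co-chaperone genes, 1 rose and 2 fell in KO livers. Hspa2, an HSP70 best known from the testis, had -1.51, -2, -1.46, -0.9 and -1.24 in WT 1 to WT 5 and -0.77, -0.28, -0.16, -0.32 and -0.63 in KO 1 to KO 5. It rose by 0.90 (SE 0.14, limma adjusted p = 0.00435), also without both male KO livers (0.93, 0.0468). The HSP70 nucleotide exchange factors Bag2, at -0.27 (SE 0.06, 0.0212), and Hspbp1, at -0.30 (SE 0.08, 0.0406), fell slightly, and with slide as a fixed block neither passed (0.0642 and 0.0600). Bag2 also missed the threshold without any one of WT 3, KO 1, KO 4 or KO 5 (0.0532 to 0.0748), and Hspbp1 without any one liver but WT 1 (0.0529 to 0.106). Hsf1 itself was at -0.06 (SE 0.06, 0.645).

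For sex, 15 of the 127 pathway genes passed (11.8%, against 11.5% of all genes). None of the 13 sensors and factors of the unfolded protein response passed. Lower in females were 4 of the 19 folding genes, 4 of 18 translocation genes and 2 of 18 degradation genes, and 1 translocation gene was higher. The named ones with the largest differences were Srprb, a signal recognition particle receptor subunit (-1.05, SE 0.11, limma adjusted p = 0.000108), the proline isomerase Fkbp11 (-1.02, SE 0.16, 0.00137), Derl3, of the retrotranslocation machinery (-1.02, SE 0.15, 0.000934), and Ppib (-0.52, SE 0.09, 0.00335). In the co-chaperone list Cryab was lower in females (-0.76, SE 0.11, 0.000785) and Fkbp5, a glucocorticoid-induced partner of HSP90, was higher (1.15, SE 0.24, 0.00960). Vbp1 of the prefoldins (0.31) and the mitochondrial co-chaperone Grpel2 (0.64) were higher in females as well. These genes were chosen after their values were seen.

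Likeness across livers was taken as Pearson's r of residuals after genotype and sex over the 10 livers, as a description. Among all non-member genes the 5 most like Hspa5 were Slc5a11, Ttc17, Elmo2, Numbl and Caap1 (r of 0.902 to 0.912), and the 5 most like Hspa1a, which stood in for the unmeasured Hspa1b, were Rasgef1b, Baz1a, the probe NAP056404-1, Parp14 and Creb1 (0.969 to 0.977). Without the male KO livers, over 8 livers, the values for these 5 were 0.73, 0.81, 0.88, 0.48 and 0.49, and those for Hspa5 were 0.89 to 0.94. The genes were picked for the highest r over the 10 livers, and the 8 livers are among those. High values over the 8 are therefore no independent check. Among the members, Manf (0.81), Hspa4 (0.77), Hyou1 (0.72) and Creld2 (0.71) were most like Hspa5. Dnajb1 (0.95), Herpud1 (0.91), Dnajb9 (0.86), Bag3 (0.82), Dnajc3 (0.82) and Hspa8 (0.81) were most like Hspa1a. Without the male KO livers the values of that second set were 0.43, 0.30, -0.04, 0.56, 0.37 and 0.28.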

How the data were processed

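RNA of 10 livers was labelled with Cy5 and hybridised with a Cy3-labelled reference on every array, without dye swaps, per the labels' protocols. Spot means and the medians of their surroundings are deposited as intensity values, extracted with Agilent Feature Extraction 10.7 (per the submitters' processing notes). The deposited LogRatio is a log10 ratio of Cy5 over Cy3, per the file headers. The authors' deposited value table holds log2 ratios of liver over reference; set against the arrays it had the same direction and scale (r of 0.9994 to 0.9996, slopes of 0.998 to 1, column medians of 0.00776 to 0.023), and how it was normalised is not given in the sources used.

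Outlier-flagged spots (169 to 291 per array) were set aside, signals corrected with normexp (offset 50) and normalised by loess within arrays. The flags were set aside before normexp because 1 array, WT 5, held flagged spots with a very bright background, seen in the data. Kept were 26956 probes whose Cy5 signal was well above background on 4 or more of the 10 arrays, and each gene was represented by its brightest probe. Names came from the RefSeq table of assembly GRCm38.p6 (22951 probes by accession, 6659 by symbol, 3109 by synonym; 8455 kept the file's name), and probe positions are those of the files (mm7).

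Fits used limma 3.58.1 in R 4.3.3 on genotype and sex, with Benjamini-Hochberg adjustment over all genes, and a second model with their interaction. Missing values of flagged spots were left out, not imputed, and no member's value was missing. Each liver is 1 mouse, and 5 livers a genotype limit the precision. The code was tested on simulated data. All 30 members are described. From each pathway list, genes past the threshold for genotype were named, up to 8 by smallest p, with Hsf1, Atf6, Ern1, Eif2ak3, Atf4 and Ddit3 always, and Hspa1a took the place of the unmeasured Hspa1b as a seed of likeness. The members and lists were chosen with earlier results of these data known. Marker lists were hepatocyte, Kupffer, sinusoidal endothelial, stellate, bile duct, pancreatic acinar, plasma and B, T and NK, neutrophil, erythroid and adipocyte genes; besides those given in the text, 1 hepatocyte gene fell in KO livers, 2 endothelial and 2 plasma and B cell genes rose, and none of the Kupffer, stellate, bile duct, acinar, T and NK, neutrophil, erythroid or adipocyte genes passed for genotype (limma; 7 of 42, or 16.7%, at an unadjusted p under 0.05, against 20.9% of all genes). Whether same-numbered livers deviated together from their genotype means was checked, and correlations were 0.53, -0.43, 0.43, 0.51 and 0.22 for numbers 1 to 5. Sex was not removed, and only number 2, at -0.43, joins a male and a female. The check therefore cannot tell pairing from shared sex, and whether the numbers pair the livers is not known.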

Additional observations from a re-analysis of the deposited data

Results flagged for a closer look

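In 4 of 58 groups of 5 livers (29 members, 2 genotypes), 1 liver stood apart from the others by Dixon's ratio, and chance alone flags about 1 in 20 groups. All 4 were KO groups. Dnajb1 was at 2.13 in KO 5 against -0.06 in the next liver, Hspa8 at -0.27 in KO 5 against -1.01, and Dnajc3 at 2.94 in KO 5 against 2.56. Manf was at -0.59 in KO 3, against 0.01 in the next lowest.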

How the results depend on the processing

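No member passed for genotype in the main setting or under the alternatives run, other than slide as a block. With slide as a fixed block 2 ER and 3 cytosolic members passed, against 1198 of all 18934 genes. With slide as a random block 0 and 1 passed, against 1578 of all genes. Of 696 alternative values of the members' KO minus WT difference, 643 kept sign and call. With outlier spots set aside only after the background fit, 337 genes passed for genotype (58.8% of them higher in KO) and 783 for sex, with 1 ER and 1 cytosolic member and 1 interaction gene. Median centring gave 274 and 909, with 3 ER and 1 cytosolic member for sex. Without a sex term 619 genes passed for genotype. The scanner's log ratio gave 3 ER members for sex, against 2526 of all genes, and 1 interaction gene. The Cy5 channel alone gave 17 interaction genes. A fixed slide block gave 3 ER and 4 cytosolic members for sex, against 2112 of all genes, and 12 interaction genes. With the replicate block 303 genes passed for genotype, 139 for sex (0 ER and 0 cytosolic members) and 18 for the interaction. In that fit the sex difference rests on WT 2 and KO 2, the only same-numbered livers of unlike sex, so it can say little about the sex calls. Without both male KO livers, an alternative added after seeing the data, 1426 genes passed for sex, with 2 ER and 0 cytosolic members. Leaving out 1 liver in turn gave 591 to 1176 genes for genotype, with 0 members of either class, 1540 to 2503 for sex with 2 to 5 ER and 1 to 3 cytosolic members, and 2 to 115 for the interaction. The genotype count was lowest without WT 3 (591), KO 1 (596) or KO 4 (666), and the interaction count was 2 without WT 4, 3 without KO 3, 21 without KO 2, 25 without WT 5, 54 without WT 3 and 115 without KO 1. ER members for sex were 2 without WT 4 or KO 5 and 3 without WT 1, WT 2, WT 3 or KO 3, and cytosolic members 1 without KO 1. The cause of these shifts was not tested. For the sex difference, results named per member were added as alternatives after seeing the data. All members were well above background in all 10 livers and none was saturated.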
